A study of Mus musculus with 6 samples.

Results

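A set of 8 genes that mark Schwann cells and their myelin were followed in ischemic mouse muscle: the myelin genes Mbp, Pmp22, Prx and Mal, the lineage genes Sox10 and S100b, and Cdh19 and Ngfr, which are associated with immature or repair Schwann cells. They were chosen by name, with earlier results of these data known. The estimated read counts of all transcripts of each Entrez gene were summed, which gave 8 genes of the 18089 in the expression table. The libraries came from gastrocnemius muscle of C57BL/6 mice taken 7 days after hindlimb ischemia (HLI), a model in which the left femoral artery is ligated and excised. WT mice (3 libraries) were compared with mice that lack the lymphocyte receptor GPR174 in all cells (Gpr174-/Y, 3 libraries). The mice were males of 8 to 10 weeks and the controls were littermates. Every library was ischemic, so the comparison is between genotypes after injury and not between injured and uninjured muscle. Muscle was sequenced as a whole, and fewer Schwann cells and less RNA per Schwann cell cannot be told apart.

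Schwann cells ensheathe the axons of peripheral nerves, and in muscle they occupy the intramuscular nerve branches and the nerve terminals. Those around large axons wrap them in compact myelin, a stack of membrane held together by proteins such as myelin basic protein (Mbp) and Pmp22, under the control of the transcription factors Sox10 and Egr2. After nerve injury, myelinating Schwann cells shut down myelin genes and take on a repair state marked by the neurotrophin receptor p75 (Ngfr) and other genes, and they remyelinate when axons regrow.

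The libraries held 18417107 to 18695036 summed counts in WT and 19173051 to 19394505 in Gpr174-/Y muscle. Gpr174 itself had 8, 2 and 5 counts in the WT libraries and 1, 0 and 0 in the Gpr174-/Y libraries, which goes with the labels. Levels of a gene across libraries are given as CPM, counts relative to the size of the library, after TMM scaling, and log2 fold changes are Gpr174-/Y minus WT from edgeR's quasi-likelihood test, with Benjamini-Hochberg adjusted p-values over all 14395 genes tested. Genotype separated these libraries broadly: 54.6% of the genes tested passed an adjusted p of 0.05, 27% higher and 27.6% lower in Gpr174-/Y muscle, 8.28% passed it with an absolute log2 fold change above 1, and in 65.6% the 3 WT and 3 Gpr174-/Y libraries did not overlap. Scaling to total counts in place of TMM moved the median log2 fold change of all genes from 0 to 0.28, so that changes given here are relative to the bulk of genes. Replicate 2 lay between or level with replicates 1 and 3 in 72.8% of the genes tested in WT and 66% in Gpr174-/Y muscle. The cause of this order was not tested, and the p-values treat the 3 libraries of a genotype as independent.

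None of the Schwann cell and myelin genes passed this test. All 8 passed the filter on low counts, 0 of 8 had an adjusted p under 0.05 in either direction, against 54.6% of all genes, and 0 of 8 had libraries of the 2 genotypes that did not overlap, against 65.6%. Their median log2 fold change was −0.01, with a range from −1.45 (Mal) to 0.11 (Ngfr), beside a median of 0 over all genes tested. Since the 8 genes were chosen with earlier results of these data known, the contrast with all genes is a description. The shares of all genes were also not matched for level, whereas Mal, S100b, Cdh19 and Sox10 had at most 61 counts in a library. At an unadjusted p under 0.05, edgeR named 1 of the 8 (Mal), DESeq2's Wald test named 1 and limma voom 0. Of all 14395 genes tested, DESeq2's Wald test named 7627 at that threshold and limma voom 8788. With DESeq2 size factors in place of TMM, edgeR named 8735 of all genes and 1 of the 8. The count over all genes is not given for edgeR with TMM. The 95% intervals ranged in width from that of Pmp22 (−0.08 to 0.16) to that of Mal (−2.84 to −0.06), and the wider ones leave room for sizeable changes.

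**Figure D1:**
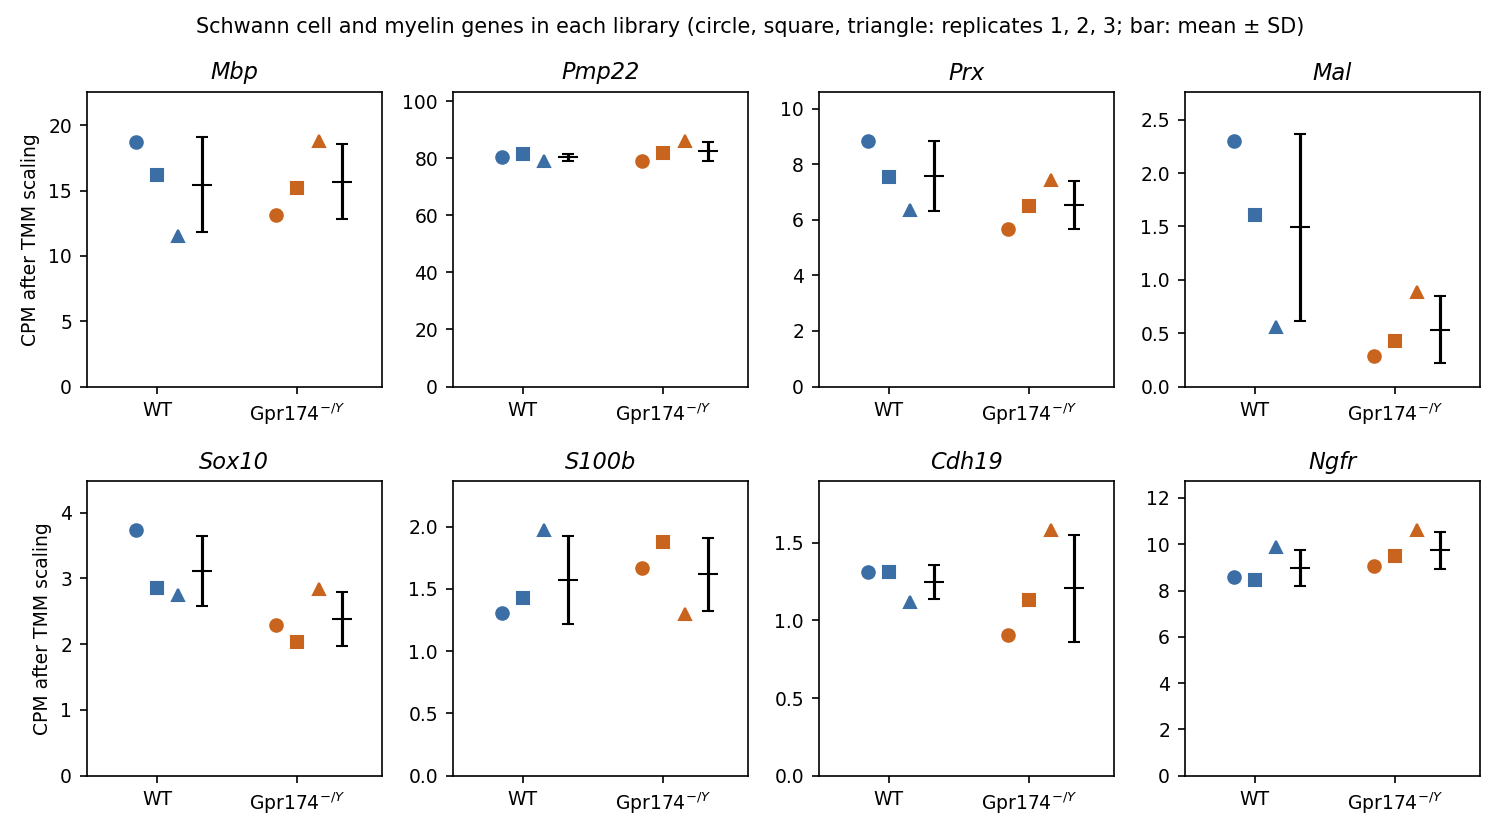
CPM after TMM scaling (vertical axis, from 0) of each of the 8 genes in the WT (blue) and Gpr174-/Y (orange) libraries, with circles, squares and triangles for replicates 1, 2 and 3 and a black bar for mean ± SD (n = 3). In all 8 panels the libraries of the 2 genotypes overlap, and Mal shows the widest spread, from 0.287 to 2.30 CPM.

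Per transcript length (FPKM as deposited, added up within each gene, mean of the 6 libraries), Pmp22 was by far the most abundant at 45.6 FPKM. Mbp followed at 5.49 FPKM and Ngfr at 2.81 FPKM, then Prx at 1.47, Sox10 at 1.02 and S100b at 0.997 FPKM, with Mal at 0.362 and Cdh19 at 0.292 FPKM lowest. The lowest Pmp22 library (39.04 FPKM) lay above the highest Mbp library (7.05 FPKM), and the lowest Mbp library (3.68 FPKM) lay above the highest Ngfr library (3.52 FPKM). Sox10, S100b and Prx had overlapping FPKM ranges, as did S100b and Mal, and Mal and Cdh19. Pmp22, a tetraspan protein of compact myelin, is also made by fibroblasts and other cells outside nerve, and the share of its reads from Schwann cells was not measured.

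Mbp, which encodes the basic proteins that hold the cytoplasmic faces of myelin together (Entrez 17196, chromosome 18, 82475146 to 82585637 on the plus strand of GRCm38), had 18.7, 16.2 and 11.5 CPM in WT and 13.1, 15.2 and 18.8 CPM in Gpr174-/Y libraries 1 to 3. The highest and lowest WT libraries differed 1.63-fold and those of Gpr174-/Y muscle 1.44-fold, and the groups overlapped. The genotypes differed by a log2 fold change of 0.03 ± 0.20 (SE; 95% interval −0.45 to 0.50; edgeR adjusted p = 0.921).

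The level of Mbp combined 2 kinds of transcript whose estimated means lay in opposite order between the genotypes. Mbp has an upstream start, whose products are known as golli proteins and are made in lymphoid and other cells as well as in neural cells, and a downstream start, 79324 bases further on, whose products are the classic myelin basic proteins. From the upstream start (82475146 to 82475162; 2 transcripts) the authors' counting program assigned 80.0, 96.9 and 117.9 counts in WT and 189.6, 223.2 and 247.6 counts in Gpr174-/Y libraries. After TMM scaling this was 5.79 ± 0.826 CPM in WT and 10.4 ± 1.24 CPM in Gpr174-/Y muscle (mean ± SD, n = 3), a ratio of 1.79, and every Gpr174-/Y library lay above every WT library, as the libraries of one genotype did for 65.6% of all genes tested.

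From the downstream start (82554470 to 82554580; 4 transcripts) the assignment was 220.4, 172.3 and 87.1 counts in WT and 53.9, 99.7 and 148.6 counts in Gpr174-/Y libraries. The means were 9.62 ± 4.44 CPM in WT and 4.73 ± 2.17 CPM in Gpr174-/Y muscle (SD, n = 3), a ratio of 0.492, but the groups overlapped, since WT replicate 3 (4.89 CPM) lay below Gpr174-/Y replicate 3 (6.91 CPM). Upstream-start transcripts therefore made up 26.6% to 57.5% of Mbp counts in WT and 61.3% to 69.1% in Gpr174-/Y libraries. The ratio of downstream-start to upstream-start counts was 2.75, 1.78 and 0.739 in WT and 0.284, 0.447 and 0.600 in Gpr174-/Y libraries, a ratio within each library that no scaling between libraries can move. The groups did not overlap, but the WT range was wide, and how often such ratios separate the genotypes in other genes was not counted. These values describe the authors' estimates and were not tested.

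Most upstream-start counts belonged to the transcript NM_001025245.1, which ends in an exon of 4384 bases (82554320 to 82558703), and 3953 of these bases are intron of the downstream-start transcripts. The estimates do not separate spliced from unspliced RNA in that stretch. Of the exonic bases of the upstream-start group 69.9% occur in no downstream-start transcript, whereas 10.7% of those of the downstream-start group are its own, so the second estimate rests on a short stretch. Another 3 Mbp transcripts, which had no position in the annotation used, had 0 to 31.0 counts together in a library.

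**Figure D2:**
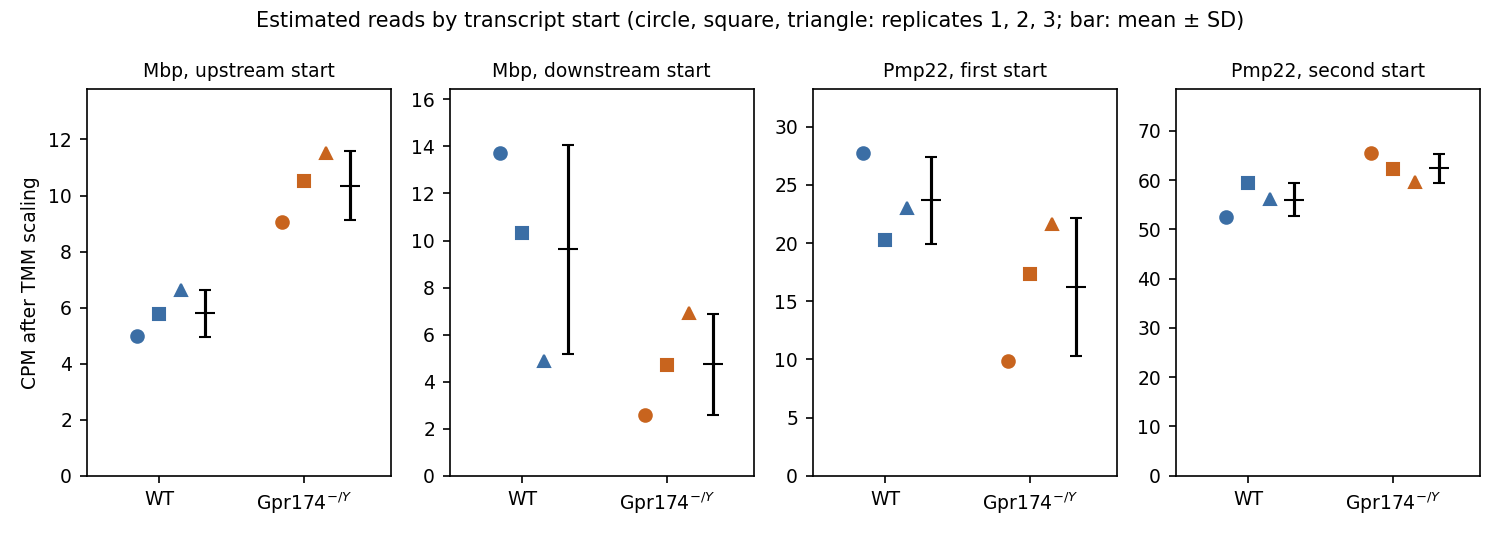
CPM after TMM scaling (vertical axes, from 0) of estimated counts grouped by transcript start, for Mbp (upstream and downstream) and Pmp22 (first and second), in WT (blue) and Gpr174-/Y (orange) libraries, with circles, squares and triangles for replicates 1, 2 and 3 and mean ± SD (n = 3). The Mbp upstream start had 4.97 to 6.63 CPM in WT and 9.06 to 11.5 CPM in Gpr174-/Y libraries, while the downstream start overlapped between genotypes and was highest, at 13.7 CPM, in WT replicate 1.

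Pmp22 (Entrez 18858, chromosome 11, 63128982 to 63159547, plus strand of GRCm38) was the most evenly expressed of the 8 genes, with 80.3, 81.4 and 79.1 CPM in WT and 79.1, 82.0 and 86.0 CPM in Gpr174-/Y libraries. The log2 fold change was 0.04 ± 0.05 (SE; 95% interval −0.08 to 0.16; edgeR adjusted p = 0.555), and the 6 libraries spanned 1.09-fold. This level depends on the scaling. In the authors' FPKM, which are relative to all mapped fragments, Pmp22 had 40.6 ± 1.48 in WT and 50.5 ± 3.42 in Gpr174-/Y libraries (mean ± SD, n = 3) with no overlap, and with scaling to total counts the log2 fold change was 0.31 (edgeR adjusted p = 0.00503), close to the 0.28 by which all genes moved. How many genes had no overlap in FPKM was not counted.

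Pmp22 is known to be transcribed from alternative promoters, of which the most upstream is used mainly by myelinating Schwann cells. The first start, at 63128982 (3 transcripts), had 445.3, 341.1 and 410.1 estimated counts in WT and 206.6, 367.6 and 464.3 in Gpr174-/Y libraries. That is 23.7 ± 3.74 CPM in WT and 16.3 ± 5.93 CPM in Gpr174-/Y muscle (SD, n = 3), a ratio of 0.687, with overlap between the groups because of Gpr174-/Y replicate 3 at 21.6 CPM. The second start, at 63131512 (3 transcripts), held most of the counts, 65.5% to 82.7% of the gene in the 6 libraries, with 56.0 ± 3.40 CPM in WT and 62.4 ± 2.89 CPM in Gpr174-/Y muscle, a ratio of 1.11 with no overlap, as in 65.6% of all genes tested. Only 9.28% and 8% of the exonic bases of these groups are their own, and a transcript from a further start (63132569) received 0 counts in each WT library and 61.9, 4.3 and 102.8 in the Gpr174-/Y libraries, so the division among Pmp22 starts is less certain than the gene's total.

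The DNA just upstream of the 2 main Pmp22 starts is shown because the 2 groups of transcripts differ there and share nearly all of their exonic sequence. Both stretches come from RefSeq (GRCm38.p6, plus strand, 250 bases each, 5′ to 3′), and capitals mark the 50 bases nearest to the RefSeq start. The second RefSeq start lies 55 bases before the annotated start used above.
Pmp22 first start, chr11:63128732-63128981: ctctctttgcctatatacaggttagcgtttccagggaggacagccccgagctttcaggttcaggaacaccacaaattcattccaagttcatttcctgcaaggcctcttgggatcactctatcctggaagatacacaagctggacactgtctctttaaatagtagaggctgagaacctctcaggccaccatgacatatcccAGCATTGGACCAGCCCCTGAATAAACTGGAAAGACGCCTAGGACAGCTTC
Pmp22 second start, chr11:63131207-63131456: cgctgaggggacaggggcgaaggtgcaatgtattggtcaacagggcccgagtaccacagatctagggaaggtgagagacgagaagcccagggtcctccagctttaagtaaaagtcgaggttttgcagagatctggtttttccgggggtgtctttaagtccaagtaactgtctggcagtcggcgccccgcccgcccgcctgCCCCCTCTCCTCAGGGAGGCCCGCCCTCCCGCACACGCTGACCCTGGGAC
The first stretch has a GC content of 48.8% and the second of 61.2%. Letters bound by SOX factors (ACAAAG or ACAATG, either strand) or by EGR factors (GCGGGGGCG or GCGTGGGCG, either strand) were found in 0 of the 8 windows of 300 bases listed for Pmp22, Prx, Mal, S100b and Ngfr, against 28.6% and 3.47% of the 32851 such windows of all genes. The other genes of the 8 had no window in this count. Several of the windows belong to Pmp22, and 2 of those overlap, so the windows are not independent. The difference from all genes was not tested. The absence says only that these letters are not in these windows.

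Prx encodes periaxin, a scaffold of the outer myelin sheath that links it to the dystroglycan complex (Entrez 19153, chromosome 7, 27499324 to 27520214, plus strand of GRCm38). It had 8.84, 7.56 and 6.35 CPM in WT and 5.69, 6.50 and 7.44 CPM in Gpr174-/Y libraries. WT replicate 1 was highest and Gpr174-/Y replicate 1 lowest, and the other libraries of both genotypes interleaved. Between genotypes the log2 fold change was −0.21 ± 0.15 (SE; 95% interval −0.57 to 0.16; edgeR adjusted p = 0.284), and with scaling to total counts it turned to 0.07. The long form, L-periaxin (1391 codons), had 98.0, 91.8 and 42.6 estimated counts in WT and 92.6, 113 and 116 in Gpr174-/Y libraries, and the short form (148 codons) had 44.0, 35.2 and 70.4 counts in WT and 26.4, 24.7 and 44.0 in Gpr174-/Y libraries. WT replicate 3 was the library in which the short form exceeded the long form. Both forms have the same start and end, and the division of counts between them is an estimate that was not tested.

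Mal, a small membrane protein of myelin and of transport vesicles (Entrez 17153, chromosome 2, 127633226 to 127656695, minus strand of GRCm38), showed the largest difference and the largest spread of the 8. It had 2.30, 1.61 and 0.562 CPM in WT and 0.287, 0.424 and 0.884 CPM in Gpr174-/Y libraries, from 37, 27 and 10 against 6, 9 and 19 counts. The WT libraries spanned 4.09-fold and the Gpr174-/Y libraries 3.08-fold, and WT replicate 3 lay below Gpr174-/Y replicate 3. The log2 fold change of −1.45 ± 0.59 (SE; 95% interval −2.84 to −0.06) had an unadjusted p of 0.0432 and an adjusted p of 0.0727 by edgeR, and did not pass. It passed with DESeq2's Wald test (log2 fold change −1.49, adjusted p = 0.0437) and, in edgeR, when WT replicate 3 was left out (−1.85, adjusted p = 0.0041). T lymphocytes and epithelia also express Mal, and its source in these libraries was not tested.

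Sox10, the transcription factor that defines the lineage from neural crest onwards (Entrez 20665, chromosome 15, 79154908 to 79165240, minus strand of GRCm38), had 3.73, 2.86 and 2.75 CPM in WT and 2.29, 2.03 and 2.84 CPM in Gpr174-/Y libraries, from 43 to 61 counts in a library. Gpr174-/Y replicate 3 lay above WT replicate 3, so the groups overlapped by a narrow margin. Its log2 fold change was −0.38 ± 0.19 (SE; 95% interval −0.82 to 0.06; edgeR adjusted p = 0.124), and it was between −0.52 and −0.10 under all alternatives tried, with no adjusted p under 0.0681.

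S100b, a calcium-binding protein abundant in Schwann cells (Entrez 20203, chromosome 10, 76253853 to 76261159, plus strand of GRCm38), had 1.31, 1.43 and 1.97 CPM in WT and 1.67, 1.88 and 1.30 CPM in Gpr174-/Y libraries. It was the only member whose lowest library was Gpr174-/Y replicate 3. The log2 fold change was 0.04 ± 0.22 (SE; 95% interval −0.49 to 0.57; edgeR adjusted p = 0.894) from 21 to 40 counts, and its sign changed when single libraries were left out. S100b overlaps Dip2a on the other strand, and the sources used here do not state whether strand was used in counting. Dip2a was higher in Gpr174-/Y libraries, with a log2 fold change of 0.21 (edgeR adjusted p = 0.0264), and its part in the S100b counts was not tested.

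Cdh19, a cadherin of Schwann cell precursors and their descendants (Entrez 227485, chromosome 1, 110888326 to 110977584, minus strand of GRCm38), had 1.31, 1.31 and 1.12 CPM in WT and 0.908, 1.13 and 1.58 CPM in Gpr174-/Y libraries. The WT libraries lay within 1.17-fold of each other and inside the 1.74-fold range of the Gpr174-/Y libraries. With 19 to 34 counts the log2 fold change was −0.04 ± 0.24 (SE; 95% interval −0.61 to 0.53; edgeR adjusted p = 0.898), and its sign turned with total-count scaling (0.23).

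Ngfr, the p75 neurotrophin receptor that marks immature and repair Schwann cells (Entrez 18053, chromosome 11, 95568818 to 95587735, minus strand of GRCm38), had 8.59, 8.45 and 9.89 CPM in WT and 9.08, 9.51 and 10.6 CPM in Gpr174-/Y libraries. WT replicate 3 lay above 2 of the Gpr174-/Y libraries. For Ngfr the log2 fold change was 0.11 ± 0.10 (SE; 95% interval −0.12 to 0.35; edgeR adjusted p = 0.363). With scaling to total counts it was 0.39 (edgeR adjusted p = 0.0282), beside a shift of 0.28 for all genes. Ngfr is also present on perivascular and stromal cells.

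Ratios between the 8 genes within a library do not depend on scaling. Pmp22 counts per Sox10 count were 21.5, 28.5 and 28.7 in WT and 34.5, 40.5 and 30.3 in Gpr174-/Y libraries, and Ngfr counts per Sox10 count were 2.30, 2.96 and 3.59 against 3.96, 4.70 and 3.72. In both ratios all Gpr174-/Y libraries exceeded all WT libraries, as they did in the ratio to Sox10 of 39.8% of the other genes tested, and both share the Sox10 count, whose mean was lower in Gpr174-/Y muscle (2.39 against 3.11 CPM). Mal counts per Sox10 count were 0.617, 0.562 and 0.204 in WT and 0.125, 0.209 and 0.311 in Gpr174-/Y libraries, with overlap. The ratio of Prx to Sox10 stayed between 2.31 and 3.21 in the 6 libraries, and that of Cdh19 to Sox10 was 0.350 to 0.458 in WT and 0.396 to 0.558 in Gpr174-/Y libraries, both with overlap. Downstream-start Mbp per Sox10 was 3.67, 3.59 and 1.78 in WT and 1.12, 2.32 and 2.44 in Gpr174-/Y libraries, also with overlap. No test was made of these ratios.

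Only some of the myelin genes were highest and lowest in the same libraries. Of the 8 genes, 2 (Prx and Mal) were highest in WT replicate 1 and lowest in Gpr174-/Y replicate 1, an arrangement found in 10.5% of the genes tested. Downstream-start Mbp and first-start Pmp22 had the same arrangement, although the totals of both genes did not, and these transcript groups are named because they show it. Upstream-start Mbp had its lowest value in WT replicate 1 and its highest in Gpr174-/Y replicate 3. Among the Gpr174-/Y libraries, replicate 3 was highest for 7 of the 8 genes, against 37.7% of all genes tested.

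**Figure D3:**
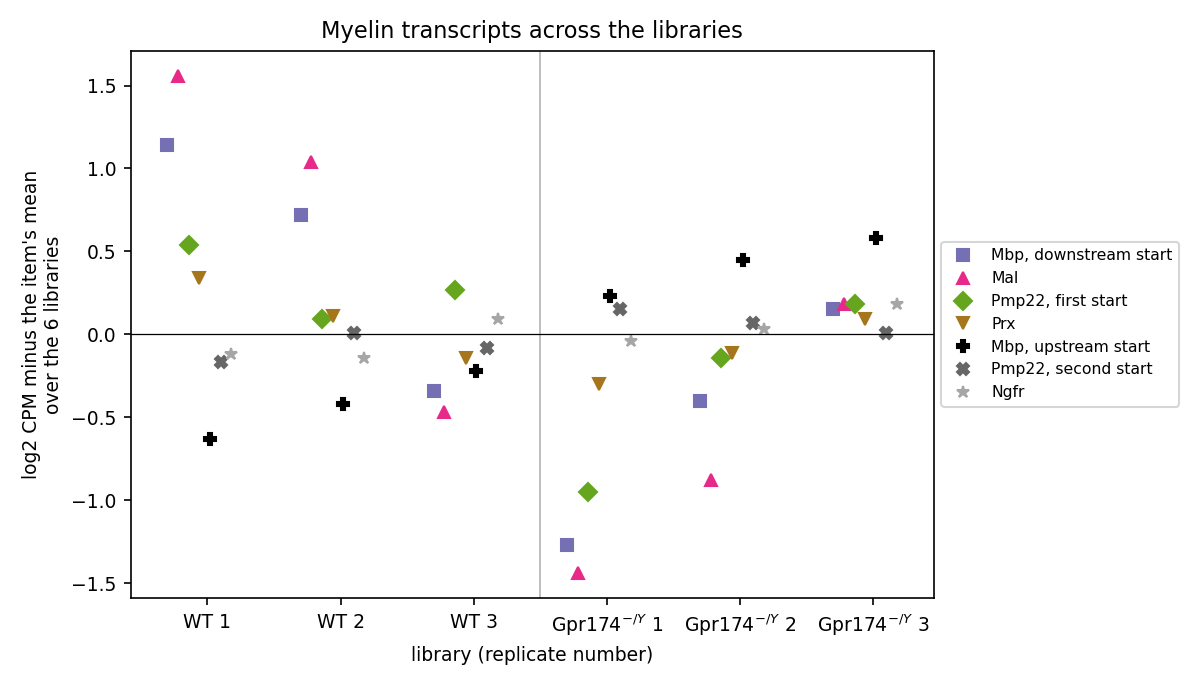
Log2 CPM of each item minus its own mean over the 6 libraries (vertical axis), for 7 genes or transcript groups in the 3 WT (left) and 3 Gpr174-/Y (right) libraries, 1 marker shape an item. Downstream-start Mbp and Mal range from above 1 in WT replicate 1 to below −1 in Gpr174-/Y replicate 1 and are below 0 in WT replicate 3, whereas second-start Pmp22 and Ngfr stay within 0.18 of 0.

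Other myelin genes were mixed. Of 12 listed, 6 were tested, 1 was higher (27% of all genes) and 1 was lower (27.6%), with a median log2 fold change of −0.38. Cldn19, a claudin of Schwann cell tight junctions, was lower (log2 fold change −1.42, edgeR adjusted p = 0.00279), at 1.37, 1.07 and 1.01 CPM in WT and 0.430, 0.471 and 0.372 CPM in Gpr174-/Y libraries. With 9, 10 and 8 counts in the Gpr174-/Y libraries, Cldn19 passed the filter on low counts through the WT libraries. It was not tested with a minimum of 10 counts in every library. Drp2, a partner of periaxin, was higher (0.88, adjusted p = 0.00234), at 16.9 to 24.9 CPM against 35.9 to 39.6 CPM, while Prx, given above, did not pass. Cnp, an enzyme of non-compact myelin that other cells also make and the most abundant of the list per length, had a log2 fold change of 0.12 (adjusted p = 0.289), which became 0.39 (0.0181) with total-count scaling.

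Among regulators and receptors of the lineage, 10 of 12 were tested, 6 were higher and 2 lower (median 0.55), beside 27% and 27.6% of all genes. Erbb3, the neuregulin receptor of Schwann cells, was higher (1.11, edgeR adjusted p = 0.000717), with 14.9 to 19.6 CPM in WT and 36.2 to 37.6 CPM in Gpr174-/Y libraries. The cells that its transcripts came from were not tested. Zeb2 (0.68, adjusted p = 0.00101) and Egr2 (0.64, adjusted p = 0.00225), transcription factors of myelination that macrophages also express, were higher as well. Lgi4, a secreted Schwann cell signal for myelination, was lower (−0.77, adjusted p = 0.00205), as was Foxd3, a factor of neural crest and early glia (−0.91, adjusted p = 0.00802).

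Of 13 genes of the repair state, 10 were tested, 3 were higher and 0 lower (median 0.52), so that the share higher was near the 27% of all genes and 27.6% of all genes were lower. The cytokine Lif (1.75, edgeR adjusted p = 0.000829), the transcription factor Runx2 (1.25, adjusted p = 0.00189) and the neurotrophic ligand Artn (0.82, adjusted p = 0.0135) were higher, and none of these is limited to Schwann cells. Artn lost its call without replicate 2 of either genotype (edgeR adjusted p = 0.0611 without that of WT and 0.0508 without that of Gpr174-/Y). The growth factor Ptn, the most abundant per length, had 0.64 (edgeR adjusted p = 0.0766), and it passed without WT replicate 3 (0.97, adjusted p = 0.0107), with total-count scaling (0.90, 0.0292) and with DESeq2's Wald test (0.64, 0.0268). Among genes of non-myelinating Schwann cells, 7 of 8 were tested, 4 were higher and 2 lower (median 0.70), beside the same shares of all genes. Cdh2 (1.28), Scn7a (1.05), Ncam1 (1.01) and Matn2 (0.70) were higher in Gpr174-/Y muscle, and Ncam1 and Cdh2 are also made by immature muscle fibres. The collagen Col28a1, which surrounds non-myelinating Schwann cells, was lower (−0.66, edgeR adjusted p = 0.00391), as was Ptprz1 (−0.85, adjusted p = 0.00822). With the lists chosen as they were, these counts are given as a description.

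Of 13 axon and node genes 8 were tested, with 1 higher and 4 lower (median −0.50), a share called near the 54.6% of all genes. The cells that these transcripts came from were not tested. Prph, an intermediate filament of peripheral neurons (−2.33, edgeR adjusted p = 0.00373), and Cntnap2 (−2.66, adjusted p = 0.00416) and Cntnap1 (−0.69, adjusted p = 0.0146), of the regions beside the node of Ranvier, were lower in Gpr174-/Y muscle. Prph had 2.36, 1.79 and 0.955 CPM in WT and 0.287, 0.377 and 0.326 CPM in Gpr174-/Y libraries, so that WT replicate 1 was highest, as for Mal. With 6, 8 and 7 counts in the Gpr174-/Y libraries, Prph passed the filter on low counts through the WT libraries. Prph and Cntnap2 were not tested with a minimum of 10 counts in every library. Uchl1 was lower by a small amount (−0.32, edgeR adjusted p = 0.0234), and lost its call without WT replicate 2 (0.0657), Gpr174-/Y replicate 1 (0.0646) or Gpr174-/Y replicate 2 (0.0925) and with total-count scaling (−0.05, 0.743). Cntnap1 lost its call without Gpr174-/Y replicate 2 (0.0577) and with total-count scaling (0.0518). The tubulin Tubb3 was higher (2.51, adjusted p = 0.00073). Of the perineurial genes all 6 were tested, 2 were higher (Sox9, 1.18 and Slc2a1, 0.99) and Cldn1 was lower (−0.95, edgeR adjusted p = 0.0055), which is also near the 54.6% of all genes called.

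**Figure D4:**
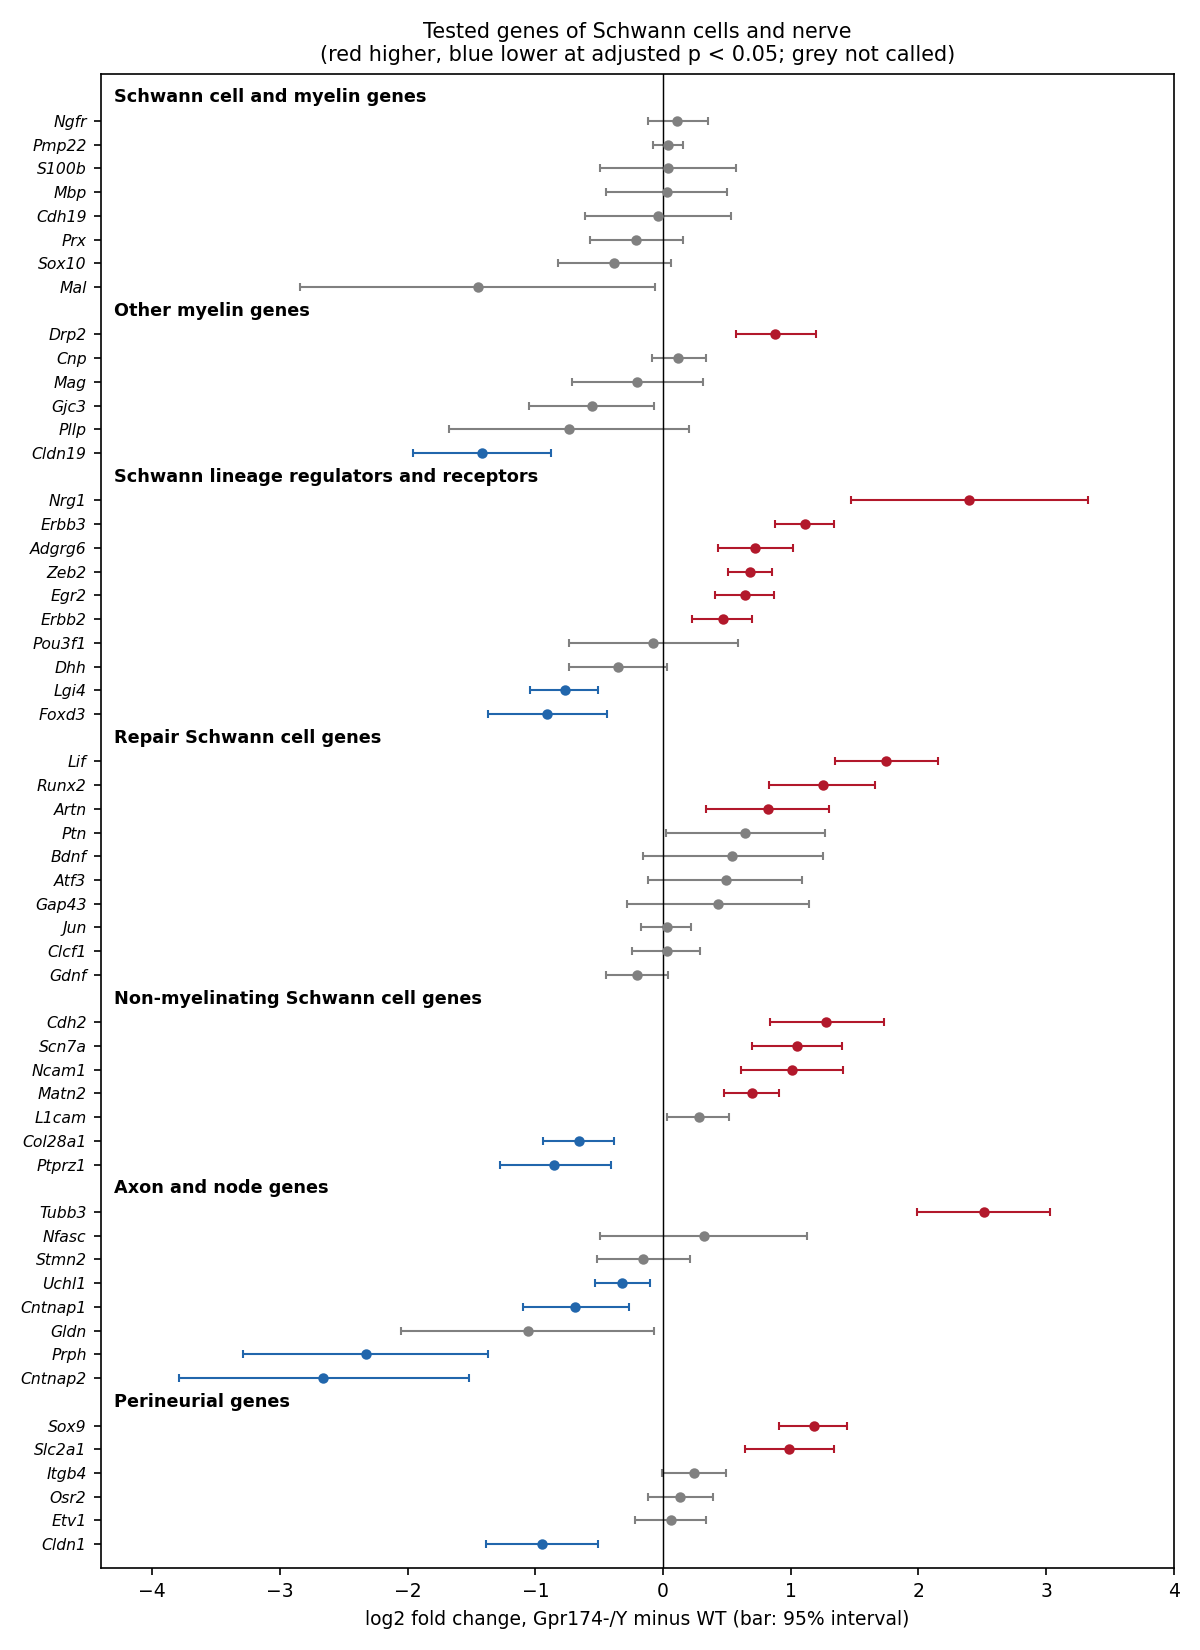
Log2 fold change, Gpr174-/Y minus WT (horizontal axis), with 95% interval for each tested gene of the 8 and of the 6 related lists, in red where higher and in blue where lower at an adjusted p under 0.05 and in grey otherwise. All 8 Schwann cell and myelin genes at the top are grey, with Mal at −1.45, while Cldn19 at −1.42 and Lgi4 at −0.77 are blue and Erbb3 at 1.11 is red.

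Markers of several other cells moved with genotype beside these lists, against 27% of all genes tested called higher and 27.6% called lower. All 8 macrophage markers were higher, with a summed level of 866 to 1430 FPKM in WT and 2600 to 2640 FPKM in Gpr174-/Y libraries, and all 10 mature fibre markers were lower, from 65300 to 83200 FPKM down to 32500 to 36000 FPKM. All 8 endothelial markers were lower (321 to 338 against 226 to 250 FPKM), and of 8 fibroblast markers 4 were higher and 3 lower (2830 to 4190 against 5970 to 6440 FPKM). The fibroblast sum is mostly that of the collagens of the list, and the markers called lower are not collagens. Among these collagens, Col1a1 had a mean of 1010 FPKM in WT and 2200 FPKM in Gpr174-/Y libraries. Of 7 T cell markers 0 were higher and 1 lower (8.10 to 12.2 against 12.4 to 14.2 FPKM), and of 7 adipocyte markers 2 were higher (120 to 194 against 187 to 247 FPKM). The shares called, 14.3% of T cell and 28.6% of adipocyte markers, were below the 54.6% of all genes. Summed FPKM are relative to all mapped fragments, whereas the calls follow TMM scaling, so sums and calls can differ. The most abundant marker per length of each list had a log2 fold change of 1.00 (Lyz2, macrophages), −1.15 (Acta1, fibres), −0.82 (Cdh5, endothelium), 0.87 (Col1a1, fibroblasts), 0.43 (Cd4, T cells, not called) and 0.06 (Cfd, adipocytes, not called). The part of these cells in the levels of Pmp22, upstream-start Mbp, Ngfr and Mal, and in those of the related lists, was not tested. Melanocytes, which share Sox10, had summed markers of 0.40 to 0.50 FPKM in WT and 0.36 to 0.66 FPKM in Gpr174-/Y libraries, with no marker above 17 counts and Pmel, the most abundant, at 9 to 13 counts, and none of the 4 oligodendrocyte markers in the table, of 6 listed, exceeded 6 counts in any library (Myrf, the most abundant, had 5 to 6, and Olig2 and Opalin had no row). The Schwann cell markers Sox10, Erbb3 and Cdh19 were detected in all 6 libraries. Of these Erbb3 was called higher (log2 fold change 1.11), while Sox10 (−0.38) and Cdh19 (−0.04) were not called.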

How the data were processed

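Whole ischemic muscle was sequenced in 3 WT and 3 Gpr174-/Y mice. The authors deposited expected counts, FPKM and TPM per transcript, and the TPM were not used for any value given. The submitters' processing notes name HISAT2 2.0.4, Bowtie2 2.2.5, RSEM 1.2.12 and the mouse build GRCm39, and the use of strand is not given in the sources used here. The deposited FPKM values are relative to all mapped fragments and transcript length. The deposited expected counts, which RSEM divides among isoforms by estimation, were summed per gene (58843 transcripts, 18089 genes, 99.7% named from a RefSeq table) and rounded. TMM scaling, the default filter on low counts and the quasi-likelihood test of edgeR 4.0.16 (R 4.3.3) were then run on 3 against 3 libraries. The study ran DEGseq, which was not used here. On simulated data for this comparison, with 14395 genes, 87 genes were changed by 1 (log2) and 113 by 2. Of these 94.3% and 96.5% were recovered, with 7 false calls. The shares were not split by level, so they do not give the recovery for genes with as few counts as Mal, S100b or Cdh19. In the real libraries Mal, with 6 to 37 counts, had an SE of 0.59 and was not called at a log2 fold change of −1.45. Depth was 18417107 to 19394505 counts per library, at which 3 counts equal 0.140 to 0.187 CPM. Intervals and p-values measure only the spread between these libraries.

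Genes were assigned to transcript starts by GENCODE M21 (GRCm38), and all coordinates are of GRCm38, not of the build in the processing notes. The 8 genes and all lists were chosen with earlier results of these data known, and some genes of the lists are not reported here. Beside the 8 genes and Gpr174, the genes named were those with the 3 lowest adjusted p-values in each direction in each nerve list, the most abundant per length of each list, and the 5 most correlated with Sox10. Dip2a was named for its overlap with S100b and Gfra3 after its values were seen. Alternatives were DESeq2 1.42.0 size factors and Wald test, upper-quartile and total-count scaling, limma 3.58.1 voom, other filters, TMM without mature fibre markers, a replicate block, replicates 1 and 3 only, and each library left out.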

Additional observations from a re-analysis of the deposited data

How the results depend on the processing

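The count of Schwann cell and myelin genes past the threshold was 0, and it was 2 with total-count scaling (Pmp22 and Ngfr), 1 with DESeq2's Wald test (Mal) and 0 to 1 with single libraries left out, the 1 being Mal without WT replicate 3. It was 0 under the other alternatives. With total-count scaling the signs of Prx (0.07), Cdh19 (0.23) and the melanocyte marker Pmel (0.16) turned, and with replicates 1 and 3 only those of S100b (−0.15), Cdh19 (0.04) and Pmel (0.01). With single libraries left out, Mbp ranged from −0.14 to 0.19, S100b from −0.08 to 0.25, Cdh19 from −0.28 to 0.12, Pmel from −0.17 to 0.02 and the adipocyte marker Cfd from −0.07 to 0.23. Their causes were not tested.

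With total-count scaling 78.4% of called genes were higher, against 49.5% with TMM; calls of repair genes came to 6, of axon and node genes to 3, of perineurial genes to 6, and those of other myelin genes to 2 higher and 1 lower. A minimum of 10 counts in every library tested fewer genes, without Mal, Cldn19, Prph and Cntnap2 among others, and called 3 axon and node genes and 1 other myelin gene. Replicates 1 and 3 only, with 4 libraries, called 0 genes in every list and 0 of all genes (5026 at an unadjusted p under 0.05, lowest adjusted p 0.0542, edgeR). This setting leaves out replicate 2, which often lay between the others as given above, and it also has fewer libraries. The parts of these in the lost calls were not told apart. Leaving out single libraries gave 2 to 5 calls for other myelin genes (5 without WT replicate 3), 2 to 6 for repair genes (6 without WT replicate 3), 3 to 6 for axon and node genes (3 without Gpr174-/Y replicate 2) and 5457 to 9165 for all genes. Same-numbered libraries came from different mice and their deviations did not go together (r of 0.01, 0.01 and −0.02); with the replicate block 0 of the 8 genes and 6812 of all genes were called. Mal, S100b and Cdh19 had 6 to 40 counts in a library.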

Other observations

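The 5 genes whose log2 CPM followed Sox10 most closely over the 6 libraries, among 13628 genes compared, were Gpatch2l (Pearson r = 0.989), Ypel1 (0.982), Ago4 (0.974), Hps5 (0.973) and Prox2 (0.973). They are given as a description with no p, since 6 libraries of 2 genotypes share scaling and depth and 26 of the genes reached 0.95. None of them belongs to the Schwann cell and nerve lists. Gfra3, the artemin receptor of immature Schwann cells and sensory neurons, did not pass the filter on low counts. It had 12, 9 and 6 counts in the WT libraries and 1, 1 and 4 in the Gpr174-/Y libraries, and the groups did not overlap, as for 65.6% of the genes tested. It was named after its values were seen. Without the filter the log2 fold change of Gfra3 was −2.41 ± 0.58 (SE; edgeR adjusted p = 0.0118).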
